A study of Rattus norvegicus with 3 samples.

Results

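The genes described here encode subunits of the transcription factor NF-kB (Nfkb1, Nfkb2, Rel and Relb), its inhibitors Nfkbia and Tnfaip3, the Toll-like receptors Tlr2 and Tlr4 with their adaptor Myd88, and the target gene Birc3. They were chosen by symbol, with no measured value in the rule, and looked up among probe sets annotated with a single symbol. Both these genes and the lists used below were chosen with earlier results of these data known. Of the 10 named genes 9 were found, each with 1 probe set, among 14218 genes on the array. For Rel the annotation pairs no probe set with that single symbol, and its expression was not analysed here.

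The samples were cultures of cardiomyocytes freed by enzyme digestion from fetal rats of the outbred Wistar strain, plated for 48 hours and then treated for 24 hours. The control culture received fresh culture medium, another received medium conditioned by skeletal myoblasts, the precursor cells of skeletal muscle, and the third received medium conditioned by cardiac fibroblasts, the matrix-producing cells of the heart. The labels give no genetic alteration for any culture. Each medium was represented by 1 Affymetrix array, so there was no replicate, no standard error and no test of any difference, and the number of arrays limits the precision.

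NF-kB proteins bind DNA as dimers and are held in the cytoplasm of resting cells by inhibitors such as the IkB alpha protein that Nfkbia encodes. Toll-like receptors recognise microbial products and molecules from damaged cells, and through MyD88 they activate the kinases that mark IkB for destruction, which frees the dimers to enter the nucleus. Nfkbia and Tnfaip3 are themselves NF-kB targets in many cell types and limit the response by negative feedback. Cardiomyocytes carry Toll-like receptors, and macrophages are known for strong use of the pathway.

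The bases just before the annotated starts are shown because Nfkbia and Tnfaip3 are known NF-kB targets, and kappa B sites are where NF-kB is known to bind. Promoters of 8 of the 10 named genes were found by symbol in the RefSeq table of rat assembly GRCr8. For each gene only the first listed start was used. The 250 bases before it were searched on both strands for the kappa B consensus. A match occurred in 5 of the 8, namely Nfkb2, Rel, Nfkbia, Tnfaip3 and Tlr2, and in 4 of the 7 whose expression was measured. Among 27457 rat promoters of the same length, likewise from the first listed start of each gene, 3.52% held a match. Among the 11701 of genes on the array 4.29% did. The windows of Nfkb1, Tlr4 and Myd88 held no match, and Relb and Birc3 had no entry. The sequence TATAAA, searched on both strands, was in 0 of the 8 windows, against 13.1% of all promoters and 8.07% of those of genes on the array. Shown 5′ to 3′ on the strand of the gene, with every kappa B match in capitals, are Tlr2 (chr2:171504558-171504807, minus strand), Tnfaip3 (chr1:15543980-15544229, minus strand), Nfkbia (chr6:78597073-78597322, minus strand), Nfkb2 (chr1:255108124-255108373, plus strand) and, as the gene with the second highest difference under fibroblast medium and no match, Myd88 (chr8:127956231-127956480, minus strand).
Tlr2: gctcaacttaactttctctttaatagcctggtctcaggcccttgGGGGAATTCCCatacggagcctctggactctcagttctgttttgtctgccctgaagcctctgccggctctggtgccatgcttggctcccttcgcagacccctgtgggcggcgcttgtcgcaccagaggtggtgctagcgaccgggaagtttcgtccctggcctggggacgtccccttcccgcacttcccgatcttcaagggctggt
Tnfaip3: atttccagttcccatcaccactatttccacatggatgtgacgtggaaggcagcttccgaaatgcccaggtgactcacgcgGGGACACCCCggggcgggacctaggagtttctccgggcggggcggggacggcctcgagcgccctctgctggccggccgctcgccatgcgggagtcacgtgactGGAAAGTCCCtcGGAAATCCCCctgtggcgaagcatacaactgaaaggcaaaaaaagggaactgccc
Nfkbia: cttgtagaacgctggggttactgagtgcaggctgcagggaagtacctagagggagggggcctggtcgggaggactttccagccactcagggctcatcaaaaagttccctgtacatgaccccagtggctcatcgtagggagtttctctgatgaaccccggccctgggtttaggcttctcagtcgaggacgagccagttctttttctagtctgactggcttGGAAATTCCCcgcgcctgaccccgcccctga
Nfkb2: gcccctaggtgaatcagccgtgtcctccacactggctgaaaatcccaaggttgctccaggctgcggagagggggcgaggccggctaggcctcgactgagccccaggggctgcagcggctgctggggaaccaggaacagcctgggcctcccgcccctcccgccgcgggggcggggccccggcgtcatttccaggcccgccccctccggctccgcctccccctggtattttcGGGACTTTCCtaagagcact
Myd88: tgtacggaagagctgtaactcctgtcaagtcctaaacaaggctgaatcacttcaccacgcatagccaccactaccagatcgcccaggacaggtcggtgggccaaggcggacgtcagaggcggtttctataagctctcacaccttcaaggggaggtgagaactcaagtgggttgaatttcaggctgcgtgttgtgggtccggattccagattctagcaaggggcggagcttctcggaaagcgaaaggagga

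Tnfaip3 held the most matches, 3 in all, and the nearer pair lay close together, from 67 to 58 and from 55 to 46 bases before the start. In Nfkb2 the match lay from 20 to 11 bases before the start, and in Nfkbia from 31 to 22 bases before it. The match in Tlr2 was farther away, a run of 11 bases that began 206 bases before the start and held 2 overlapping matches. In Rel, whose expression was not measured, a run of 11 bases began 82 bases before the start. A match of letters describes the sequence and says nothing of binding in these cells.

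**Figure D1:**
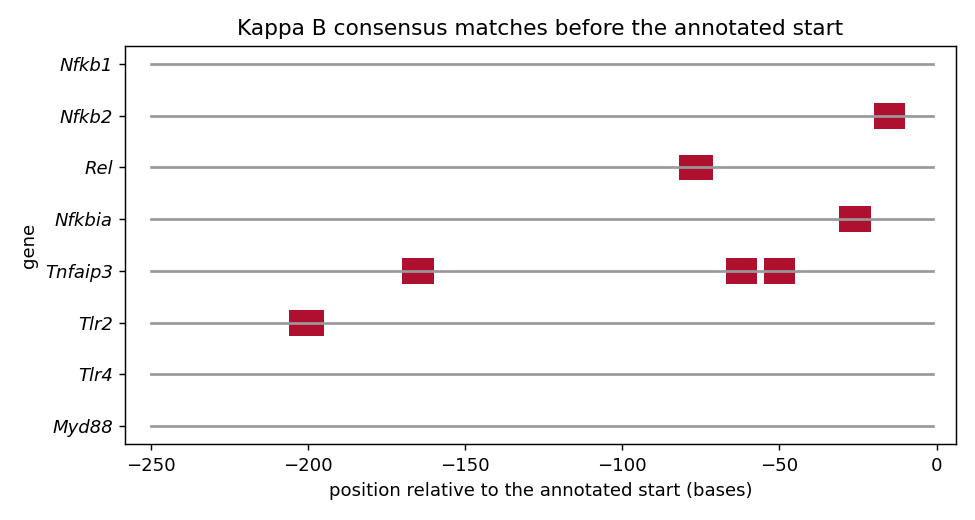
Kappa B consensus matches (red blocks) in the 250 bases before the annotated start of 8 named genes, 1 row per gene, with position relative to the start in bases on the horizontal axis. Tnfaip3 has 3 blocks, Nfkb2, Rel, Nfkbia and Tlr2 have 1 each, and Nfkb1, Tlr4 and Myd88 have 0.

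Values are on a log2 scale and centred on each probe set's median over the 3 arrays, so the middle array is 0, differences between arrays can be read (1 is 2-fold), and how bright a gene was cannot. On all arrays together 14218 genes were named, and the median difference over them was 0.00 in each of the 3 comparisons. Of these, 1627 genes were at 0 on all arrays and 4526 had several probe sets, which were averaged. Each of the 9 measured genes had 1 probe set and a value, so the shares of all genes include unlike genes. Taking each gene's probe set of widest range, 787 genes were at least 2-fold higher and 508 lower under fibroblast than fresh medium. Averaging gave 605 and 369. Technical error could be gauged only from transcripts meant to be added to each sample in equal amounts, which 42 probe sets measure. The largest size of their differences was 0.66 between myoblast and fresh medium, 0.68 between fibroblast and fresh medium, and 1.02 between the conditioned media. With their signs, these differences ran from -0.01 to 0.66, from -0.68 to 0.59 and from -1.02 to 0.48, in the same order. Whether equal amounts were added is not known. The labelled cell type could not be checked against its markers for presence, since centring removes the level, and the labels do not give the purity of the cultures.

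Fibroblast-conditioned medium gave the highest value of the 3 media for all 9 measured genes, against 30.9% of all genes. Compared with fresh medium, Tlr2 was 6.60-fold and Myd88 2.39-fold higher, and these 2 of 9 genes passed 2-fold, against 4.26% of all genes higher and 2.6% lower. At 1.5-fold the count was 7 of 9, against 9.09% of all genes, and Nfkb1 and Tlr4 were the exceptions. At 3-fold it was 1 of 9, against 1.84%. The median of the 9 log2 differences was 0.80. In 6 of the 9 the difference was larger in size than that of any added control transcript, as it was for 12.8% of all genes.

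Between myoblast-conditioned and fresh medium, the log2 differences of the 9 genes ran from -0.97 to 0.34, with a median of -0.16. Of the 9 genes 0 passed 2-fold in either direction, against 1.35% of all genes higher and 0.844% lower. At shares this low, 0 of 9 says little about these genes. The difference was below 0 for 7 of 9, against 40.2% of all genes, and the myoblast array was the lowest of the 3 for the same 7, against 21.3%. Tnfaip3 had the largest difference in size, 1.96-fold lower. It was the only one of the 9 that was at least 1.5-fold lower, against 2.86% of all genes. It was also the only one larger in size than the largest control difference, against 5.47%. The control differences in this comparison lay almost wholly above 0, from -0.01 to 0.66 with a median of 0.29.

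**Figure D2:**
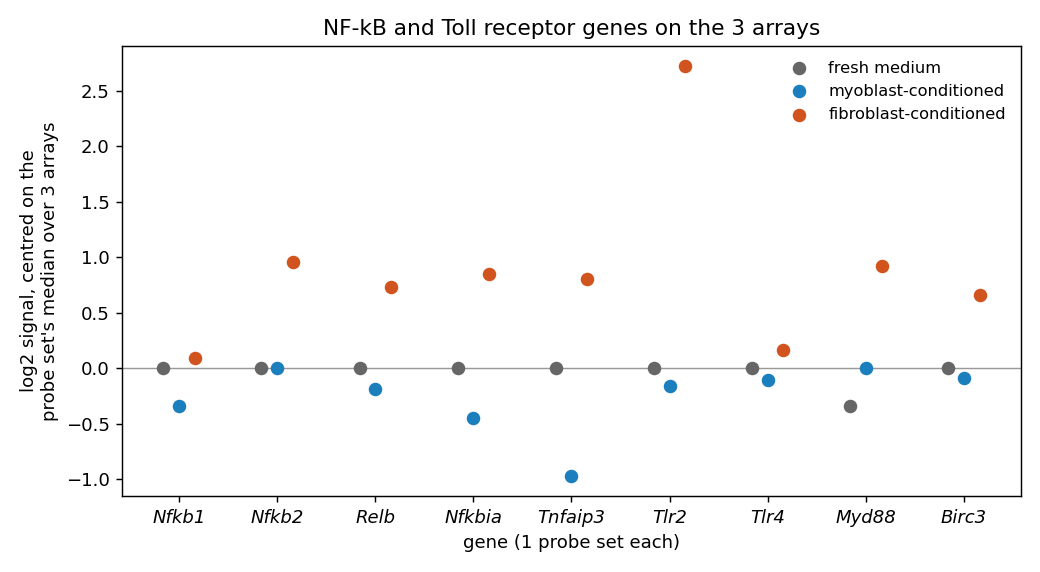
Log2 signal centred on the median of each probe set over the 3 arrays (vertical axis) for the 9 measured genes (horizontal axis), 1 point per array and no error bars because each medium had 1 array. The fibroblast-conditioned point is the highest for every gene, from 0.09 for Nfkb1 to 2.72 for Tlr2, and the lowest point of all is Tnfaip3 in myoblast-conditioned medium, at -0.97.

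Among the receptors, Tlr2 (probe set 1392280_at), which senses bacterial lipoproteins together with Tlr1 or Tlr6, had centred log2 values of 0.00 in fresh, -0.16 in myoblast-conditioned and 2.72 in fibroblast-conditioned medium. The fibroblast array stood far above the other two, which lay close together. Its difference of 2.72 between fibroblast and fresh medium ranked 71 among 14218 genes. Between the conditioned media it was 2.88, or 7.38-fold, with rank 67. Tlr4 (1387982_at), the receptor for bacterial lipopolysaccharide, was at 0.00, -0.11 and 0.16 in the same order of media. Its 3 values lay within 0.27 of each other, and 25.6% of all genes had a difference between fibroblast and fresh medium at least as high. The unlike values of these receptors on the same arrays are a description of 1 probe set each.

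Myd88 (1374468_at), the adaptor that both receptors share, was at -0.34 in fresh, 0.00 in myoblast-conditioned and 0.92 in fibroblast-conditioned medium. It was the only one of the 9 that was lowest in fresh medium and the only one with a difference above 0 between myoblast and fresh medium, 0.34 or 1.26-fold. Under fibroblast medium it was higher than in fresh medium by 1.26, at rank 414.

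Among the subunits, Nfkb2 (1375989_a_at), which encodes the p100 precursor of p52 in the non-canonical branch of the pathway, was at 0.00 in fresh and in myoblast-conditioned medium and at 0.96 in fibroblast-conditioned medium. Both lower arrays were blank in the deposited table and were read as a tie. Its 1.94-fold difference from either array, which rests on that reading, fell just short of 2-fold. Relb (1376160_at), the subunit that pairs with p52, was at 0.00, -0.19 and 0.73 in fresh, myoblast-conditioned and fibroblast-conditioned medium. The fibroblast array was thus 1.66-fold above fresh medium and 1.90-fold above myoblast medium. Nfkb1 (1370968_at), which encodes p105 and p50 of the canonical branch, was at 0.00, -0.34 and 0.09. Its fibroblast and fresh values differed by 1.07-fold, less than the largest difference of the control transcripts, and its myoblast value was 1.26-fold below fresh medium. The canonical partner gene Rela, taken from a list of adaptors, kinases and Rela and named after its value was seen, was at 0.00, -0.26 and 0.39.

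Both inhibitors were higher in fibroblast and lower in myoblast medium than in fresh medium. Nfkbia (1389538_at) was at 0.00, -0.45 and 0.85, which is 1.80-fold above fresh medium under fibroblast medium and 1.36-fold below it under myoblast medium. Tnfaip3 (1385641_at), which encodes the ubiquitin-editing enzyme A20, was at 0.00, -0.97 and 0.80. The 3 values of Tnfaip3 were widely spaced, and 0.921% of all genes were as low or lower in the comparison of myoblast with fresh medium. Between the conditioned media, Nfkbia differed by 1.29 (2.45-fold) and Tnfaip3 by 1.78 (3.42-fold). The promoter windows shown above hold 1 kappa B match for Nfkbia and 3 for Tnfaip3. That of Myd88, which was 1.26 above fresh medium under fibroblast medium, holds 0. A link between matches and differences was not tested.

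Birc3 (1370113_at), which encodes a ubiquitin ligase of the inhibitor-of-apoptosis family that acts downstream of TNF receptors, was at 0.00, -0.09 and 0.66. Its 1.58-fold difference between fibroblast and fresh medium, 0.66, was smaller in size than the largest control difference, which was negative at -0.68. It lay above the highest control difference, 0.59. The neighbouring family member Birc2, with close sequence similarity to Birc3 and named after its value was seen, was at -0.07, 0.13 and 0.00 and so did not follow the same order of media.

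**Figure D3:**
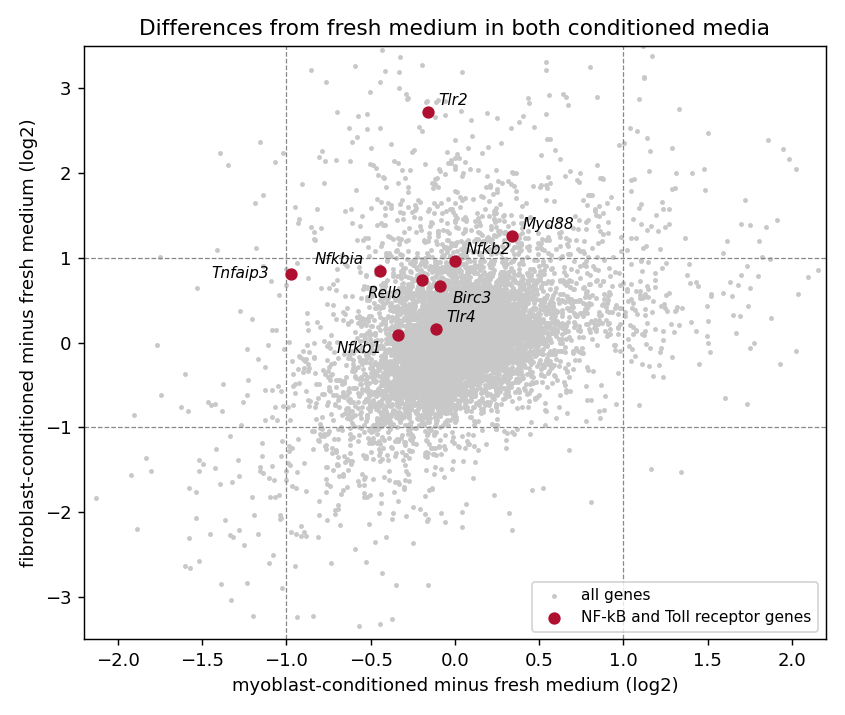
Log2 difference of myoblast-conditioned (horizontal axis) and fibroblast-conditioned medium (vertical axis) from fresh medium for all genes (grey) and the 9 measured NF-kB and Toll receptor genes (red), with dashed lines at 2-fold; 67 genes lie outside the axes. All 9 red points lie above 0 on the vertical axis, Tlr2 and Myd88 lie above 2-fold, and Tnfaip3 lies farthest left at -0.97; both axes share the fresh medium array.

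Set directly against each other, the conditioned media differed in the same direction for all 9 genes, with fibroblast medium higher, against 39.3% of all genes. The log2 differences ran from 0.27 for Tlr4 to 2.88 for Tlr2, with a median of 0.93. Tlr2, Tnfaip3 and Nfkbia passed 2-fold, 3 of 9 against 3.94% of all genes. The same 3 were larger in size than the largest control difference, as 5.81% of all genes were. That control difference was negative, -1.02, and the highest was 0.48. Nfkb2, Relb, Myd88 and Birc3 also lay above 0.48, and Nfkb1 and Tlr4 lay below it. At 1.5-fold the count was 7 of 9, against 8.34% of all genes. Nfkb2 at 0.96, Relb at 0.93 and Myd88 at 0.92 lay just below 2-fold. This comparison uses the same fibroblast array as the one with fresh medium and is not separate evidence. When the arrays were centred on the added control transcripts, the median of all genes moved by 0.18 between the conditioned media and by -0.18 between myoblast and fresh medium. Of the 9 genes, 6 then passed 2-fold between the conditioned media, and Tnfaip3 reached -1.15 in myoblast against fresh medium, 1 gene past 2-fold. Over all genes, 192 higher and 120 lower than in fresh medium became 114 and 199 under myoblast medium, and 560 higher and 302 lower in fibroblast than in myoblast medium became 764 and 208.

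The wider pathway was described with lists chosen by function, to be read beside the shares of all genes at least 2-fold higher (4.26%) or lower (2.6%) under fibroblast medium and higher (1.35%) or lower (0.844%) under myoblast medium, and the median of 0.00 in both. Genes that had a probe set but no value on any array are counted as measured and read as 0.00. Of 13 measured Toll-like, interleukin-1 and TNF family receptors and co-receptors (22 listed), 4 were at least 2-fold higher and 0 lower under fibroblast medium than under fresh medium, with a median of 0.57. They were Cd14, the lipopolysaccharide co-receptor that hands its ligand to Tlr4, at 3.65, the RNA-sensing receptors Tlr7 at 2.05 and Tlr8 at 1.24, and the TNF receptor Tnfrsf1a at 1.04. Tlr1 and Tnfrsf11a had no value on any array. Under myoblast medium 0 of the 13 passed 2-fold and the median was -0.09.

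Of 24 measured adaptors and kinases (28 listed), 2 were at least 2-fold higher under fibroblast medium, the kinases Map3k8 and Ripk2, both at 1.58, and the median was 0.18. Tirap and Irak4 had no value on any array. Ripk2 was also higher under myoblast medium, at 1.24, the only one of the 24 past 2-fold there. Of 23 other inhibitors and feedback regulators (28 listed), 3 were at least 2-fold higher and 0 lower under fibroblast medium, with a median of 0.30. Il1rl1, the interleukin-33 receptor gene, was at 1.93 as a mean of 2 probe sets that read 0.27 and 3.59, Pdlim2, which encodes a protein that promotes RelA degradation, at 1.57, and Irak3, the inhibitory member of the IRAK kinases, at 1.10. Nfkbid, Tnip2 and Socs1 had no value on any array. Under myoblast medium 1 of the 23 was at least 2-fold higher and 0 lower, with a median of 0.00, and that gene was Il1rl1 at 1.06, the mean of probe sets that read 0.16 and 1.96.

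Among 12 measured genes of the inhibitor-of-apoptosis family and survival targets (14 listed), 4 were at least 2-fold higher under fibroblast medium, with a median of 0.22, and 0 passed 2-fold under myoblast medium. Bcl2a1 was at 1.88, Ier3 at 1.85, the mitochondrial superoxide dismutase gene Sod2 at 1.69 and Gadd45b at 1.32. Known cytokine, chemokine and adhesion targets of NF-kB included 18 of 34 measured (36 listed) that were at least 2-fold higher under fibroblast medium and 0 lower, with a median of 1.37 beside 0.80 for the 9 genes above. The cytokine gene Il1b was highest, at 4.94, and the adhesion genes Icam1 and Vcam1 were at 2.92 and 2.13. Lif and Csf2 had no value on any array. Under myoblast medium 5 of the 34 were at least 2-fold lower, against 0.844% of all genes, and 0 higher. They were Ccl2 at -1.21, Cxcl1 at -1.18, the complement gene C3 at -1.18, the plasminogen activator gene Plau at -1.08 and Vcam1 at -1.07.

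**Figure D4:**
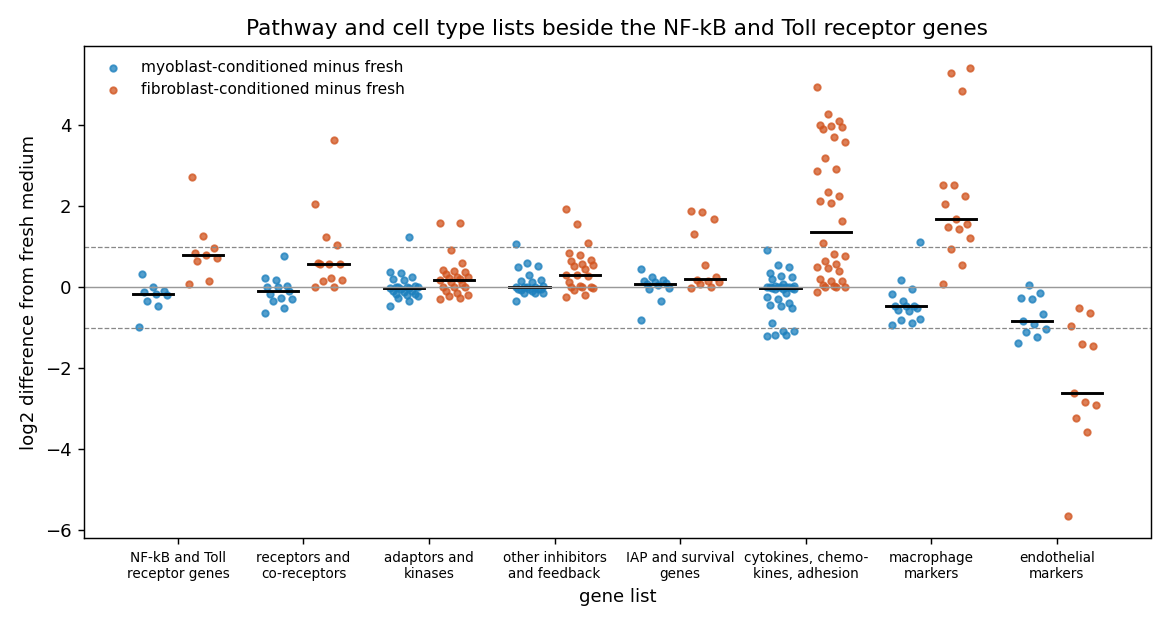
Log2 differences from fresh medium (vertical axis) for the 9 measured genes, 5 pathway lists and 2 cell type lists (horizontal axis), with 1 point per gene, black bars at list medians and dashed lines at 2-fold. Under fibroblast medium the median is 0.80 for the 9 genes, 1.37 for cytokine, chemokine and adhesion targets, 1.69 for macrophage markers and -2.60 for endothelial markers.

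Markers of other cell types differed on the same arrays. Macrophage and leukocyte genes were higher under fibroblast than under fresh medium, with 12 of 15 past 2-fold and 0 lower by 2-fold, led by Adgre1 at 5.41. Their median centred value was 0.00 in fresh, -0.47 in myoblast-conditioned and 1.69 in fibroblast-conditioned medium. All 15 had a value on at least 1 array. Endothelial markers went the other way, with 8 of 11 at least 2-fold lower under fibroblast medium, against 2.6% of all genes, Emcn lowest at -5.65, and medians of 0.84, 0.00 and -1.50 in the same order of media. Cardiomyocyte markers had a median difference of -0.58 between fibroblast and fresh medium, with 4 of 13 at least 2-fold lower. The 10 fibroblast markers had a median of 0.09, with 1 at least 2-fold higher, Thy1 at 1.69, and 1 lower, Pdgfra at -1.48. Of 5 lymphocyte and 4 skeletal myoblast markers, 0 passed 2-fold in any comparison. For 1 of the lymphocyte markers, with no value on any array, this was fixed in advance. The shares of all genes past 2-fold ran only from 0.844% (lower under myoblast medium) to 4.26% (higher under fibroblast medium). Counts of 0 in such short lists therefore say little. In RNA from whole cultures, more cells of a type and more RNA per cell cannot be told apart, and the part of these cell types in the values of the 9 genes was not tested.

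The genes with differences most like those of Tlr2 were found by the Euclidean distance over its 2 differences from fresh medium. The 5 nearest of all genes were Rassf4 at a distance of 0.07, Tfpi2 at 0.11, Trem2 at 0.12, Pcdh20 at 0.13 and Fibin at 0.13. Under fibroblast medium they lay between 2.66 and 2.85 above fresh medium. With 3 arrays, many genes can share such a pattern.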

How the data were processed

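Total RNA of 3 rat cardiomyocyte cultures (RNeasy extraction, biotin labelling with the 3' IVT Express kit of Affymetrix) was hybridised to 1 array each, per the labels' protocols. The deposited values are log2 signals from RMA, a method that subtracts background, equalises the arrays and summarises probes, per the submitters' processing notes. Its version and settings were not given in the sources used here. Base 2 of the log was inferred from RMA. As the values show, they are centred on each probe set's median: of 31099 probe sets, 17117 had 2 values, always 1 positive and 1 negative, 8002 had 1, 5980 had none and 0 had 3. Blanks were read as 0, and probe sets with fewer than 2 values as ties.

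The platform annotation named 20832 probe sets with 1 symbol, of which 20764 were matched by Entrez ID to RefSeq (GRCr8) to update symbols; 436 probe sets with several symbols and 9831 unnamed ones were not used. Probe sets of a gene were averaged. Differences were counted at 2-fold (log2 of 1). With 1 array per medium no test was made. The genes that could be named are the 10 of the rule, pathway genes past 2-fold in any comparison, up to 4 of each pathway list with the smallest differences, up to 4 markers of each cell type with the largest differences and the 5 genes nearest to the member with the largest difference; not every such gene is printed, and any other is said to be named after its value was seen. The genes and lists were chosen with earlier results of these data known. Of the 10 alternatives tried, the closing section gives the effects. The counting was tested on simulated data. Python 3.11.15, NumPy 2.4.6, pandas 2.3.3 and Matplotlib 3.10.9 were used.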

Additional observations from a re-analysis of the deposited data

How the results depend on the processing

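No test exists with 1 array per medium, so the settings below show only how counts and medians over the 9 measured genes move. At 1.5-fold instead of 2-fold, 7 genes were higher in fibroblast than in fresh medium, 7 were higher in fibroblast than in myoblast medium and 1 was lower in myoblast than in fresh medium. At 3-fold, 1 gene was higher in fibroblast than in fresh medium. With each array centred on the median of the added control transcripts, 6 genes were at least 2-fold higher in fibroblast than in myoblast medium, 1 was at least 2-fold lower in myoblast than in fresh medium, and the median of the latter comparison was -0.34. The same centring moved all 9 single-gene differences between myoblast and fresh medium by more than the SD of the control transcripts, and Nfkb2 went from 0.00 to -0.18. The other 204 single-gene values under the alternatives were unchanged or moved by less than the SD of the controls in their own comparison. Between the conditioned media that centring moved Tlr2 from 2.88 to 3.06. The SD there was 0.48, against 0.16 between myoblast and fresh medium. No difference of 2-fold changed sign under the 8 alternatives other than the fold limits. Only centring on the mean over genes and on the control transcripts changed any single-gene difference. The stability under the other settings was therefore largely fixed in advance. Keeping only probe sets with 2 values moved the median from 0.80 to 0.77 between fibroblast and fresh medium. Between myoblast and fresh medium it moved the median from -0.16 to -0.18. Each gene had 1 probe set, so the choice of its summary could not matter, and Nfkb2, with 1 value, was lost when only probe sets with 2 values were kept. No paired analysis was possible because each medium has 1 array. Signal over background is unknown for all genes because the values are centred.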
